A study of Schizosaccharomyces pombe with 4 samples.

Results

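The genes of fission yeast (Schizosaccharomyces pombe) that encode subunits of the 26S proteasome were compared between cells labelled with an Atf1 plasmid and cells labelled with the empty plasmid. The genes were chosen by symbol: an rpn, rpt, pre or pup name with a number, and an annotation that names the proteasome. This gave 31 of the 7092 genes in the deposited table, and all 31 symbol matches met the annotation condition. They comprise 20 genes of the 19S regulatory particle (rpn and rpt) and 11 genes of the 20S core (pre and pup). Another 4 subunit genes, mts4 (Rpn1), scl1 (alpha-1), pts1 (beta-5) and pam1 (beta-6), carry symbols outside the rule and are given separately.

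The proteasome is the protease that degrades ubiquitin-tagged proteins in the cytoplasm and nucleus. Its 20S core is a barrel of stacked rings, with alpha subunits forming the gated outer rings and beta subunits the inner rings that hold the active sites. The 19S regulatory particle caps the barrel. Its base holds the ATPases that unfold substrates, together with ubiquitin receptors, and its lid holds the enzyme that removes the ubiquitin chain.

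All 4 libraries came from homothallic (h90) cells labelled with ade6, leu1 and ura4 markers and with pcr1 replaced by ura4+. The gene pcr1 encodes the usual dimer partner of the stress-response transcription factor Atf1. Of the libraries, 2 carried pREP41, an empty expression plasmid with an attenuated nmt1 promoter that thiamine represses, and 2 carried pREP41-Atf1. Cells were grown at 30 °C with 20 µM thiamine overnight and without it for a further 24 h. By label, the control cells also lacked pcr1. The values are the authors' pooled FPKM (fragments per kilobase of transcript, scaled to the number of fragments), 1 per group and gene, which allow no SD, n or test between libraries, and the depth is unknown.

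The genes that could check the labels did not follow them. The level of atf1 was 54.4 FPKM under the Atf1 label against 60.9 FPKM under the vector label. The deleted gene pcr1 was read at 66.4 and 35.8 FPKM, and its replacement marker ura4 was listed at 0 under the Atf1 label and read at 124.8 FPKM in the vector libraries. Every direction given here is by label. Structural RNAs without poly(A) tails (rRNA, snoRNA, snRNA and tRNA) were higher in the libraries labelled Atf1, with a median difference of 2.72 on the log2 scale over 49 RNAs. Their part in the results on the proteasome was not tested.

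No subunit gene was called changed. The authors' deposited Cuffdiff table calls 0 of the 31 genes at a q-value under 0.05. In the background, 1.95% of 6219 tested genes and 1.79% of 4965 tested protein-coding genes were called. For 31 genes, a count of 0 is near those shares. At an unadjusted p under 0.05 there was 1, the beta-7 gene pre4, against 11.1% of protein-coding genes. Lower at that p were 0 of the 31, against 4.83% of protein-coding genes. The median difference over the 31 genes was -0.0019 in log2(FPKM + 1), Atf1 label minus vector label, while that over tested protein-coding genes was -0.22. The mean over the 31 genes was on the other side of 0, at 0.016. All 31 genes were expressed above the protein-coding median, and differences tended to be higher at higher levels. Against protein-coding genes of like level, 9 of the 31 lay above the median, as set out below. In such bulk samples a different share of cells that express a gene and a different RNA level per cell cannot be told apart. Differences ran from -0.91 for the lid gene rpn501 to 1.26 for pre4. On the log2(FPKM + 1) scale 22 of the 31 genes lay within 1.5-fold in either direction, against 49.0% of protein-coding genes, with rpn10 just inside that bound. At least 1.5-fold higher were 5 genes (background 19.4%), and at least 1.5-fold lower were 4 (background 31.5%). At least 2-fold higher were 2 genes (background 11.4%), and at least 2-fold lower were 0 (background 14.1%).

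**Figure D1:**
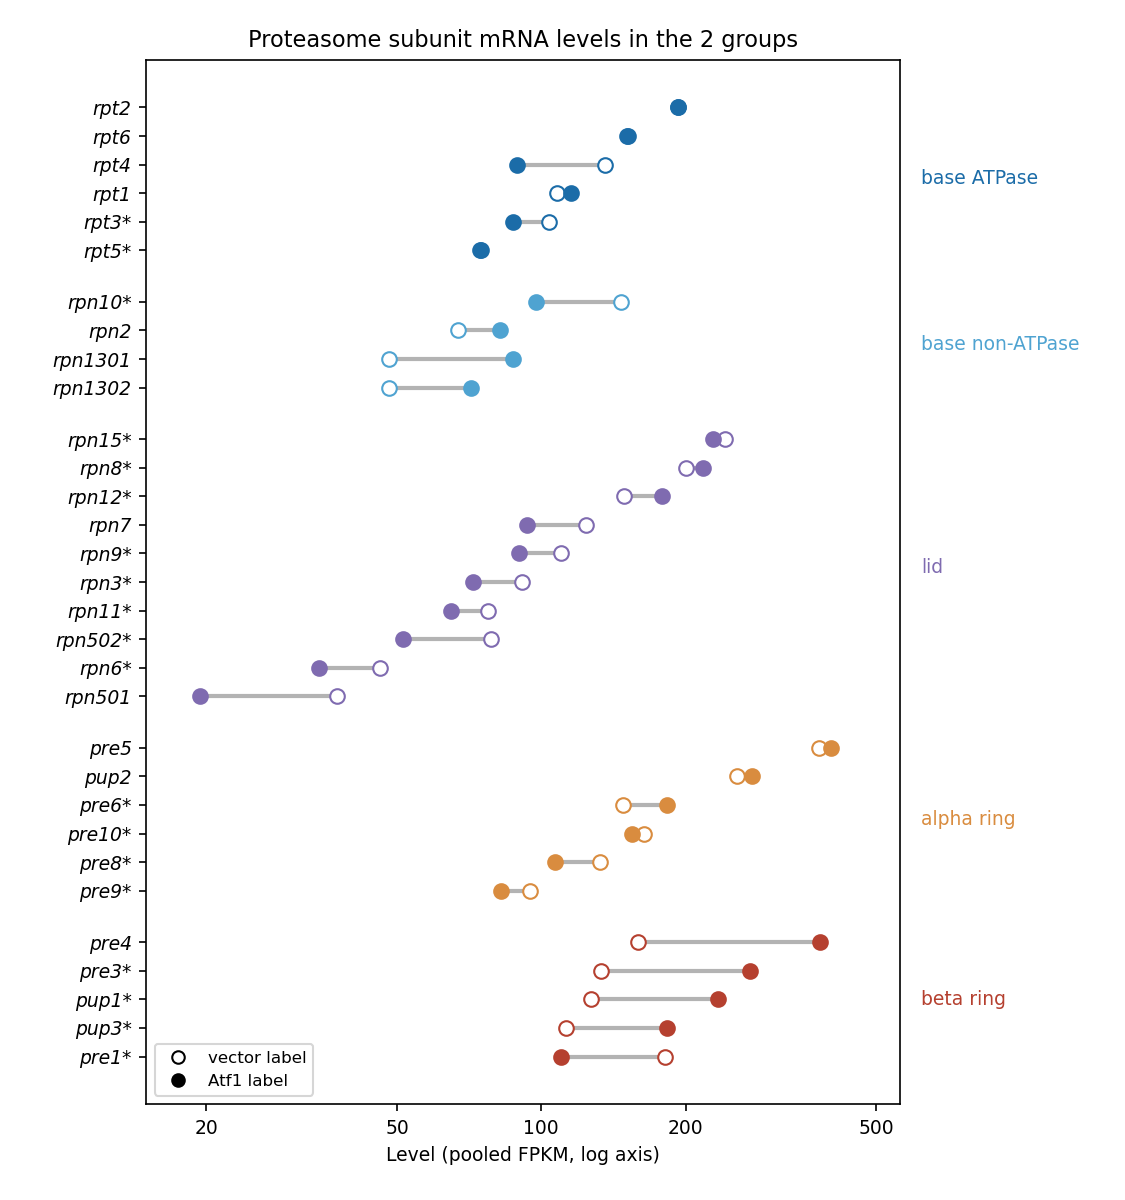
Level of each of the 31 subunit genes (pooled FPKM, log axis) with the vector label (open circles) and the Atf1 label (filled circles), by part of the proteasome and ordered by mean level. An asterisk marks a gene whose locus in the authors' table holds other genes. Of the 5 beta-ring genes, 4 lie to the right with the Atf1 label, and pre1 lies to the left.

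The subunits act as parts of one machine, but their mRNA levels were not equal. With the Atf1 label they ran from 19.5 FPKM (rpn501) to 402 FPKM (pre5, the alpha-6 subunit), a 20.7-fold range. With the vector label the same genes were lowest and highest, at 37.5 and 379 FPKM, a 10.1-fold range. The order of the subunits was similar in both groups, with a Spearman correlation of 0.86 across the 31 genes. The same correlation was 0.87 across tested protein-coding genes, and genes are not independent replicates. The median level of 20S genes was 183 FPKM for the Atf1 label and 148 FPKM for the vector label. The median of 19S genes was 88.1 and 106 FPKM. The 20S median was thus 2.08 times the 19S median for the Atf1 label, and 1.40 times for the vector label. In both groups the 20S median is the value of the alpha-4 gene pre6, whose locus holds 3 genes. These ratios compare medians of levels, which is another measure than the medians of differences given next. The 31 genes together took 0.339% and 0.493% of all FPKM, in tables whose totals differed (1321550 and 835070).

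The 20S core had a median difference of 0.11, with 7 of 11 genes above 0. The 19S particle had a median of -0.17, with 7 of 20 above 0, and among protein-coding genes 39.9% were above 0. The 19S median was 0.27 below the 20S median (a difference of -0.27 on the log2 scale). That gap was -0.0041 under quantile normalization and -0.14 with the 4 genes under other symbols added. Without the members that share a locus it was -0.11, and without the near-identical pair rpn501 and rpn502 it was -0.15. No error can be given for it. Scaled to equal FPKM totals, both medians were below 0 (19S -0.82, 20S -0.55), and with median-of-ratios scaling both were above 0 (0.064 and 0.34).

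**Figure D2:**
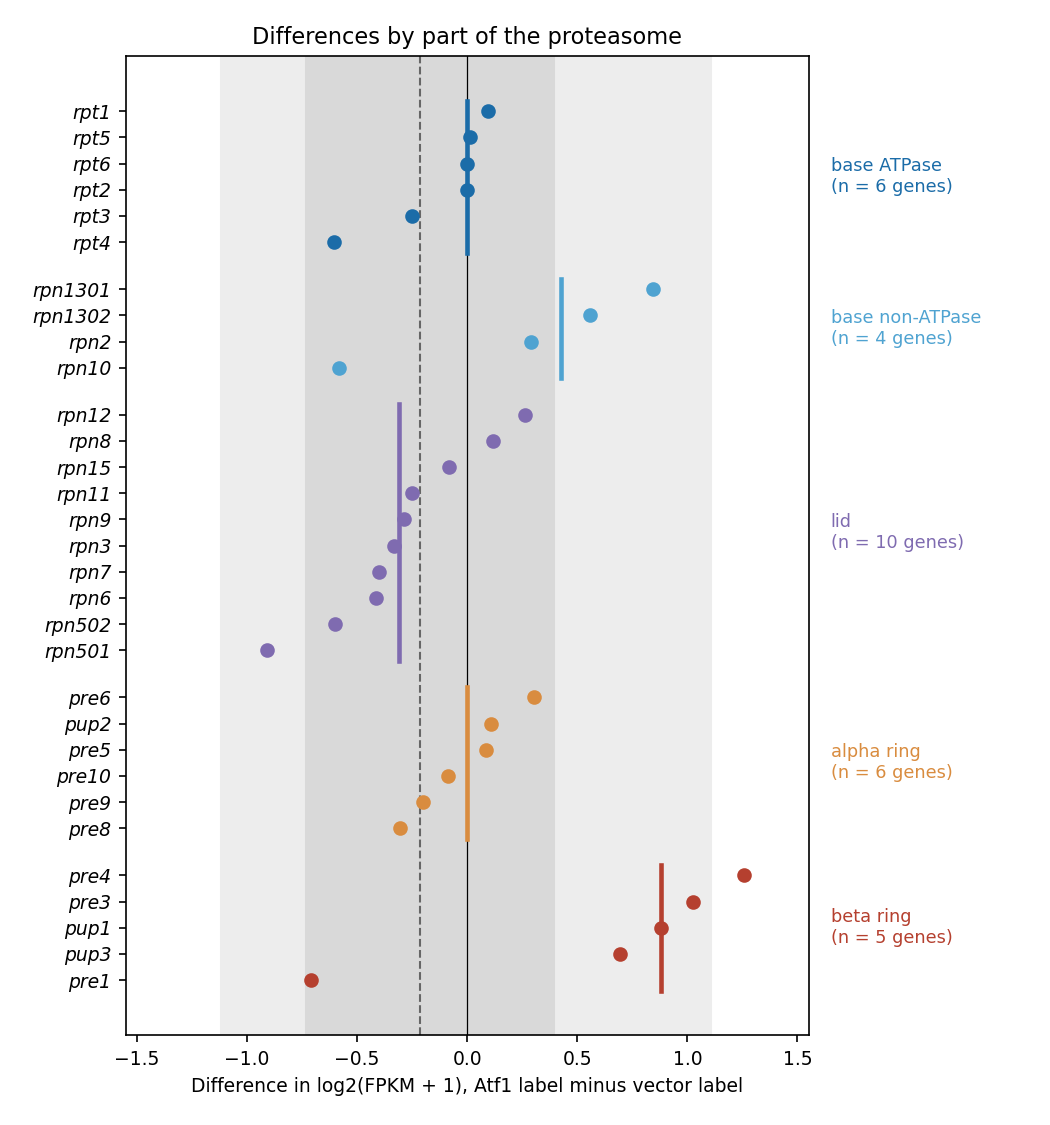
Difference in log2(FPKM + 1), Atf1 label minus vector label, for each subunit gene, with a coloured bar at the median of each part. The dashed line is the median of 4965 tested protein-coding genes (-0.22), the dark band spans their 25th to 75th percentiles (-0.73 to 0.39) and the light band their 10th to 90th (-1.12 to 1.11). Only pre4 lies outside the light band.

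The beta ring held the highest values among the differences. The gene pre4 (SPBC577.10, chromosome II 769641-770937), which encodes beta-7, a subunit without an active site, was at 381 FPKM under the Atf1 label against 159 FPKM under the vector label. This is a 2.40-fold difference, with p = 0.025 and q = 0.493 in the authors' deposited table, and 91.7% of protein-coding genes had a lower difference. The gene pre3 (SPBC4C3.10c), for the beta-1 subunit that cuts after acidic residues, was at 272 and 133 FPKM (2.04-fold, p = 0.0987, q = 0.870 in the authors' deposited table). The gene pup1 (SPAC23D3.07), for beta-2, which cuts after basic residues, was at 234 and 127 FPKM (1.85-fold, p = 0.403 in the authors' deposited table). The beta-3 gene pup3, without an active site, was at 183 and 113 FPKM (1.62-fold, p = 0.224 in the authors' deposited table). The beta-4 gene pre1 lay on the other side of 0, at 110 FPKM under the Atf1 label against 181 FPKM under the vector label. This is 1.64-fold higher with the vector label (p = 0.284 in the authors' deposited table). The q-value was 0.997 for each of pup1, pup3 and pre1.

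Under other symbols, the third catalytic subunit did not share the values of pre3 and pup1. The gene pts1, for beta-5, which cuts after hydrophobic residues, was at 156 and 153 FPKM. The beta-6 gene pam1 was at 199 FPKM under the Atf1 label against 249 FPKM under the vector label. The median difference of the beta ring was 0.88 over the 5 genes of the rule and 0.69 over all 7 beta genes. The genes pre4, pre3, pup1 and pup3 were above 0, and pre1 below 0, under each of the scalings tried. For pup3 the difference was 0.036 with equal FPKM totals. The values of pup1, pre3, pup3 and pre1 are uncertain, because the authors' loci for them hold 7, 2, 2 and 2 genes, while pre4 stands alone in its locus.

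The upstream region of pre4 is shown because pre4 had the largest difference among the subunits. It was read from RefSeq's ASM294v3 assembly, a later build than the authors' ASM294v2, as the 250 bases before the annotated transcript start on the plus strand (chrII:769403-769652). Capitals mark the TATA-box letters TATAAA, present at 31 and 128 bases before that start.
pre4: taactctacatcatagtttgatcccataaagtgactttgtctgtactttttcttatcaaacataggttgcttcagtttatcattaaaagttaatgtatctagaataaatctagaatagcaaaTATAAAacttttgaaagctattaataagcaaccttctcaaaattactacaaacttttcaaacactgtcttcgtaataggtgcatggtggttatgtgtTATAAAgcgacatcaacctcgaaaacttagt

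Alpha-ring genes lay close to 0, with 3 of 6 above it, and none was past 1.5-fold. The alpha-6 gene pre5, the most abundant subunit mRNA, was at 402 and 379 FPKM. The alpha-5 gene pup2 was at 276 and 256 FPKM, and the alpha-7 gene pre10 at 154 and 164 FPKM. The highest difference in the ring was that of the alpha-4 gene pre6, at 183 FPKM under the Atf1 label against 148 FPKM under the vector label (1.23-fold). The lowest was that of the alpha-2 gene pre8, at 107 and 133 FPKM. The alpha-3 gene pre9 was at 82.2 and 94.7 FPKM, and scl1, for alpha-1, at 213 and 210 FPKM. The median of the ring was -0.00099 for the rule's genes, and it was -0.66 with equal FPKM totals and 0.23 with median-of-ratios scaling.

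The 6 ATPases of the base form a ring that unfolds substrates and feeds them into the core. Their levels spanned 75.01 to 192.9 FPKM for the Atf1 label and 74.33 to 193.2 FPKM for the vector label. The gene rpt2 was at 192.9 and 193.2 FPKM, rpt6 at 151.2 and 151.4 FPKM, and rpt5 at 75.01 and 74.33 FPKM. The highest difference was that of rpt1 (115 and 108 FPKM). The lowest was that of rpt4, at 89.0 FPKM under the Atf1 label against 136 FPKM under the vector label, 1.53-fold higher with the vector label (p = 0.214 in the authors' deposited table). The gene rpt3 was at 87.2 and 104 FPKM. The median difference of the 6 genes was -0.0018. It was 0.23 with median-of-ratios scaling, -0.52 after quantile normalization and -0.66 with equal FPKM totals. Coding sequences of the ATPases were 51.8% to 59.5% identical over 15 pairs, and how reads were assigned among them was not tested.

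Values of the ubiquitin receptors of the base lay on both sides of 0. The Rpn13-type receptor gene rpn1301 (SPBC342.04) was at 87.3 FPKM under the Atf1 label against 48.1 FPKM under the vector label, a 1.81-fold difference (p = 0.0942, q = 0.856 in the authors' deposited table). Its paralogue rpn1302 (SPCC16A11.16c) was at 71.5 and 48.2 FPKM, a 1.48-fold difference. Their coding sequences are 45.2% identical over the alignment, and both are alone in their locus. The third receptor gene, rpn10, was at 97.6 FPKM under the Atf1 label against 147 FPKM under the vector label, and its locus holds 6 genes. With equal FPKM totals rpn1302 was at -0.092 and rpn1301 at 0.19 on the log2 scale. The scaffold gene rpn2 was at 82.0 and 66.9 FPKM, and mts4, for the other large scaffold Rpn1, at 75.4 and 65.6 FPKM.

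Lid genes lay mostly below 0, at a median difference of -0.31, with 2 of 10 above 0. It was below 0 under each of the scalings tried, from -0.97 to -0.080, and was -0.66 over the 2 lid genes that are alone in their locus. The gene for the deubiquitinase Rpn11, rpn11, was at 64.7 FPKM under the Atf1 label against 77.3 FPKM under the vector label, and rpn8, for its partner in the lid, at 218 and 201 FPKM. The highest difference was that of the scaffold gene rpn12, at 178 and 149 FPKM. The scaffold genes rpn3, rpn6, rpn7 and rpn9 were 1.22-fold to 1.34-fold higher with the vector label. The small subunit gene rpn15, whose product Dss1 also acts in mRNA export, was at 228 and 242 FPKM. Of the lid genes, 8 share a locus, and rpn501 and rpn7 do not.

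The lowest lid values came from a near-identical pair. The gene rpn501 (SPAC1420.03) was at 19.5 FPKM under the Atf1 label against 37.5 FPKM under the vector label, 1.93-fold higher with the vector label (p = 0.0674, q = 0.756 in the authors' deposited table). The gene rpn502 (SPAPB8E5.02c) was at 51.5 and 78.7 FPKM, 1.53-fold higher with the vector label. Added together, the Rpn5 genes were at 70.9 and 116 FPKM, a difference of -0.70 on the log2 scale. In ASM294v3 the coding sequences differ at 2 of 1332 bases, each the last base of a codon (codons 326 and 377). The intron of 47 bases and the 130 bases after the stop codon that could be compared are identical. The split of reads between the genes is therefore uncertain, although the deposited level of rpn502 was 2.64 times that of rpn501 for the Atf1 label, and 2.10 times for the vector label. The 184 coding bases that hold both differences are shown from RefSeq, at chrI:1267278-1267461 on the plus strand and chrI:4909683-4909866 on the minus strand, with the differing bases in capitals.
rpn501: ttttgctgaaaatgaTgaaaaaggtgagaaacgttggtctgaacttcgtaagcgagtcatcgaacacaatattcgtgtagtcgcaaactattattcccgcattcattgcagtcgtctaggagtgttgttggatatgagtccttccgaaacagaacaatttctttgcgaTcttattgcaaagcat
rpn502: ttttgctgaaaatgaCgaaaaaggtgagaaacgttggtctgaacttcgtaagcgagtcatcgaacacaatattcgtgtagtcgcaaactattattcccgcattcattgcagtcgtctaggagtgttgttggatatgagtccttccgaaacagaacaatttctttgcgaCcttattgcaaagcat

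The differences varied with level. Tested protein-coding genes were put into 10 equal bins of mean level, and the median difference was -0.48 in the lowest bin, -0.57 in the next, and 0.61 in the highest. Of the 31 subunit genes, 18 fell in the ninth bin, whose median was 0.19, and 4 in the highest. Above the median of their own bin lay 9 of the 31: 4 of the 20 genes of the 19S particle and 5 of the 11 genes of the 20S core. In the beta ring 4 of 5 were above it, and in the lid 1 of 10. Of the 4 subunit genes under other symbols, 1 was above the median of its own bin, mts4. The beta genes pts1 and pam1 and the alpha gene scl1 were below the median of the ninth bin, at 0.031, -0.32 and 0.023. The Spearman correlation of difference with mean level was 0.43 across the 31 genes and 0.36 across protein-coding genes, whose values come from the same pooled libraries. That with protein length was -0.22 and -0.082.

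**Figure D3:**
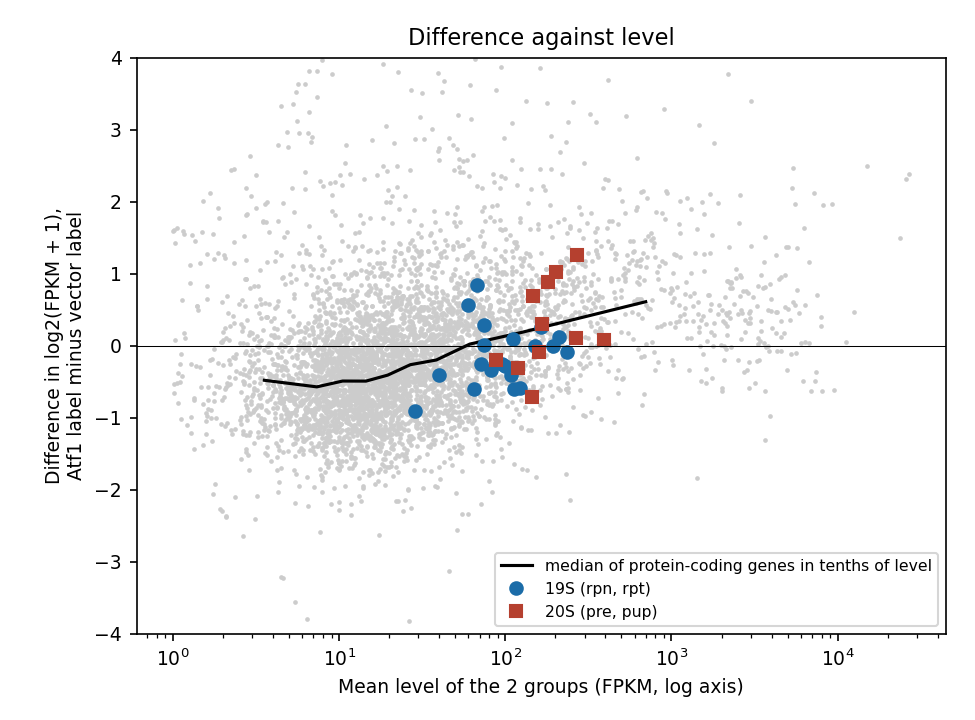
Difference in log2(FPKM + 1), Atf1 label minus vector label, against the mean level of both groups (FPKM, log axis) for 19S genes (blue circles), 20S genes (red squares) and tested protein-coding genes (grey points, with 44 genes beyond 4 in either direction not drawn). The black line joins the medians of 10 equal bins of level; it is lowest at low levels and highest at high levels, and 9 of the 31 subunit genes lie above the median of their bin.

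The subunit genes are spread over the genome, with 13 on chromosome I, 11 on II and 7 on III in ASM294v3. The closest are rpn1301 and rpn12 on chromosome II, separated by 5075 bases, and both were above 0. The next closest are rpn8 and rpt4 on chromosome III, separated by 13508 bases, at differences of 0.12 and -0.60. An intron is annotated in 24 of the 31 genes (77.4%), against 48.2% of 5156 annotated mRNAs.

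Short motifs were searched on both strands in the 250 bases before each annotated transcript start. The letters GGTGGCAAA, the element through which Rpn4 controls proteasome genes in budding yeast (Saccharomyces cerevisiae), were found before 0 of the 31 genes and 0.0778% of 5144 promoters. The core of the Atf1 site, TGACGT, was before 1 of 31 (rpn12) and 5.54% of promoters. The HomolD box CAGTCACA was before 1 of 31 (pre10) and 2.60% of promoters, and ACCCTACCC, part of the HomolE box, before 0 of 31 and 1.26%. The TATA letters TATAAA were before 19 of 31 (61.3%) and 44.4% of promoters. Matches to different motifs were counted separately and none was taken as a binding site. The single TGACGT match is shown in 150 bases upstream of rpn12 (chrII:4214797-4214946, plus strand), where capitals mark it as read on the opposite strand.
rpn12: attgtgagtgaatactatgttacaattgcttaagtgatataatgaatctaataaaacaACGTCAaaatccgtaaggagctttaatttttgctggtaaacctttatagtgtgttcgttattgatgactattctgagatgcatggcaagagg

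Around the proteasome, the polyubiquitin gene ubi4 (SPBC337.08c, chromosome II 1044271-1046642) was the only gene called in the lists examined. That count is near the background share, as given with the lists below. It rose from 62.2 FPKM with the vector label to 585 FPKM with the Atf1 label, 9.40-fold, and q = 0.00809 in the authors' deposited table. It encodes ubiquitin units in tandem and is a stress-inducible source of ubiquitin in yeasts. The genes that encode ubiquitin fused to a ribosomal protein were at far higher levels and were not called: ubi3 was at 14625 and 10554 FPKM, ubi5 at 3761 and 3946 FPKM, ubi1 at 3011 and 3495 FPKM, and uep1 at 1783 and 1441 FPKM. The loci of ubi1, ubi5 and uep1 hold other genes. Of the summed FPKM of these 5 genes, ubi4 made up 2.46% for the Atf1 label, against 0.319% for the vector label. The coding sequence of ubi4 is at most 85.1% identical to those of the others, and ubi4 is alone in its locus. Its difference of 3.21 on the log2 scale was between 2.56 and 3.44 under the scalings tried.

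The 250 bases before the start of ubi4 as annotated in ASM294v3 (chrII:1045593-1045842, minus strand) are shown because ubi4 was called. The authors' locus for ubi4, in ASM294v2, runs past this window to 1046642. The window may therefore lie inside the transcript they measured and not upstream of it. Capitals mark TATAAA on either strand. None of the other motifs searched is in this window, and bases beyond it were not searched.
ubi4: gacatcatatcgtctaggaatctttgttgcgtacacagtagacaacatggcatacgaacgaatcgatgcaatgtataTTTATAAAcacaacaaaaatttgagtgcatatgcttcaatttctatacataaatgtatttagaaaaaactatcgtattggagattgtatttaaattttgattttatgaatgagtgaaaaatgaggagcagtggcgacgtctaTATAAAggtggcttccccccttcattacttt

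In the list of ubiquitin genes and conjugating factors, 48 members were tested. Called higher was 1 of the 48 (ubi4), a share near the 1.71% of protein-coding genes. Called lower were 0, against 0.0806%. The median difference was -0.13. The bins of level that hold these 48 genes had a median of -0.45, and 25 lay above the median of their own bin. The lowest difference in this list was that of the ubiquitin ligase gene rhp18, at 7.09 FPKM under the Atf1 label against 17.0 FPKM under the vector label. Of 16 tested genes for assembly factors and associated proteins, 0 were called and 4 were above 0, with a median of -0.12. The bins of level that hold these 16 genes had a median of 0.021, and 5 lay above the median of their own bin. The highest difference among these 16 was that of cdc48, for the segregase that delivers ubiquitinated proteins. It was at 768 and 347 FPKM (2.21-fold, q = 0.925 in the authors' deposited table). The lowest was the proteasome adaptor gene ecm29, at 3.53 and 9.02 FPKM. The maturation factor gene ump1 was at 147 and 198 FPKM. Deubiquitinating enzymes had a median of -0.57 over 16 genes, with 4 above 0 and 0 called. They are expressed at low levels (medians of 8.17 and 16.7 FPKM), where the median difference of protein-coding genes was also low. The bins of level that hold these genes had a median of -0.49, and 7 of the 16 lay above the median of their own bin. Their differences ran from that of otu2 (7.60 and 19.7 FPKM, p = 0.0255 in the authors' deposited table) to that of ubp8 (35.4 and 27.0 FPKM). The loci of cdc48, ecm29, rhp18, ump1 and ubp8 hold other genes as well.

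**Figure D4:**
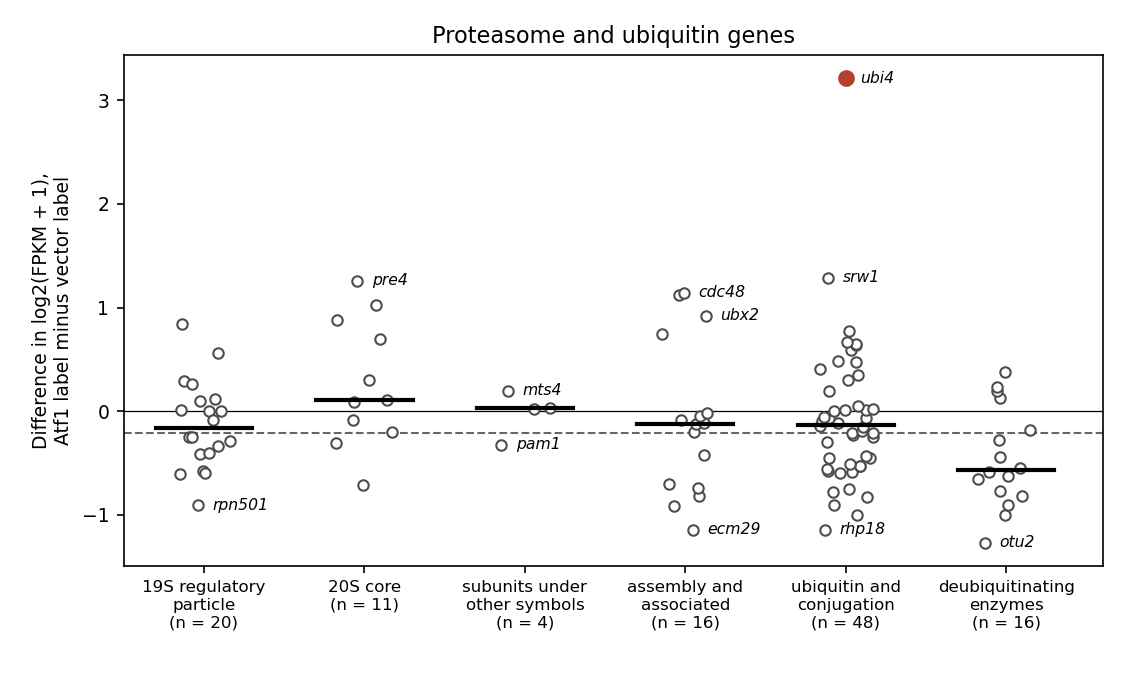
Difference in log2(FPKM + 1), Atf1 label minus vector label, for tested genes of the 19S particle, the 20S core and the lists around them. Each point is a gene, the black bars are list medians, the dashed line is the protein-coding median (-0.22), and the filled red point is the gene called by the authors, ubi4 at 3.21.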

How the data were processed

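Total RNA of 4 samples in 2 groups was made into stranded mRNA libraries, per the labels' protocols. HISAT2, Cuffdiff and the build ASM294v2 are named in the submitters' processing notes. The scaling between groups is not stated in the labels or headers. The deposited values are FPKM, 1 pooled value per group and gene, and both deposited tables held the same FPKM in all 7092 genes. The p-values and q-values are those the authors deposited, and no test was added. The labels do not say whether a group's 2 libraries are separate cultures, so the spread behind the p-values may be technical. Protein lengths in amino acids (a database column of another kind than the measurements) were taken from the authors' table.

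Differences are log2(FPKM + 1), Atf1 minus vector, which understates changes of low genes. Genes with status OK and a mean of at least 1 FPKM were tested, and all 31 members passed. Fold changes are ratios of the deposited FPKM. Protein-coding genes are those of RefSeq's ASM294v3 annotation on chromosomes I to III, and 6746 of 7092 genes matched it. Gene positions are the authors' loci unless ASM294v3 is named. A locus can hold several genes.

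The members, the gene lists and the named genes were chosen with earlier results of these data known. From the lists, pus1, prs1 and upf3 were dropped because they are not proteasome or ubiquitin genes, and uch2 and ubp6 were moved to the associated proteins. Named were the extremes of each part, the catalytic subunits, rpn11, the ubiquitin receptors, paralogues, members past 1.5-fold or with p under 0.05, the extremes of each list and called genes. Other genes were named after their values were seen. Coding identity used global alignment (Biopython 1.88), and near-identical copies were found with BLAST+ 2.17.0 at 95% identity over 50% of the coding sequence. Calculations used pandas 2.3.3 and numpy 2.4.6 under Python 3.11.15, with matplotlib 3.10.9 for plots. The other settings tried were a pseudocount of 0.1 or 5, the filter removed or set to 10 FPKM, 3 other scalings, 3 other choices of members and an unadjusted p.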

Additional observations from a re-analysis of the deposited data

How the results depend on the processing

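No paired analysis was possible because each group has a single deposited value, and for the same reason leaving out a replicate was not run. Pseudocounts of 0.1 and 5 moved none of the medians of the 31 genes, the 19S, the 20S and the beta ring by as much as 0.1. No filter and a mean of at least 10 FPKM could not move these medians. The lowest mean of a member was 28.5 FPKM (rpn501), so the same members passed. The cause of the other movements was not tested. The median of the 31 genes (-0.0019) was 0.23 with median-of-ratios scaling, -0.53 after quantile normalization, -0.66 with equal FPKM totals and 0.088 without shared loci. The 19S median (-0.17) was 0.064, -0.54 and -0.82 under those scalings, -0.0016 without shared loci and -0.042 without the rpn501 and rpn502 pair. The 20S median (0.11) was 0.34, -0.53 and -0.55 under those scalings. The beta-ring median (0.88) was 1.11, 0.41 and 0.22, then 0.69 with subunits under other symbols and 1.26 without shared loci, where pre4 alone is left. The 19S minus 20S gap (-0.27) was -0.0041 with quantile normalization, -0.14 with subunits under other symbols, -0.11 without shared loci and -0.15 without the pair. Members at least 2-fold higher (2) were 4 with median-of-ratios scaling, 0 after quantile normalization, 0 with equal totals and 1 without shared loci. Members at least 2-fold lower (0) were 2 with quantile normalization and 7 with equal totals. Members called (0) were 1 at an unadjusted p under 0.05. A scaling changed the sign of 14 of the 31 genes. Those scalings moved the protein-coding median by 0.22, -0.042 and -0.61. Without the depth, the counting error of low genes cannot be given.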

Other observations

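Apart from the 35 subunit genes, 86 tested genes carry a process annotation that names the proteasome. Over them the median difference in log2(FPKM + 1) was -0.25, against -0.22 over tested protein-coding genes. Above 0 were 30 of the 86 (34.9%), against 39.9% of protein-coding genes. Called in the authors' deposited table is 1 of the 86, ubi4, against 1.79% of protein-coding genes. Lower at an unadjusted p under 0.05 were 4 of the 86, a share near the 4.83% of protein-coding genes. These are fes1, for an Hsp70 nucleotide exchange factor, cul1, for the cullin scaffold of SCF ubiquitin ligases, alm1, for a nuclear pore-associated protein, and SPAC2F3.16, annotated as a RING finger protein. They were named after their values were seen, and their q-values in the authors' deposited table were between 0.272 and 0.458.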
